A study of Homo sapiens with 27 samples.

Results

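APOBEC3A, APOBEC3B, APOBEC3C, APOBEC3D, APOBEC3F, APOBEC3G and APOBEC3H are the 7 human APOBEC3 cytidine deaminase genes, out of 60683 genes in the deposited tables. They were chosen by gene symbol, with differences between the treatment groups in these same expected counts already known. Their group values are therefore a description, and the adjusted p-values given with them say where each gene lies in the fit of all genes and lend no independent support. A filter on low counts kept 16173 genes, among them 6 of the 7 members. APOBEC3A, at a total of 170.8 expected counts over 27 libraries, was not kept.

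RNA was sequenced from MCF10DCIS.com, an established human breast line derived from MCF10A cells that forms lesions resembling ductal carcinoma in situ. Flasks received 500000 cells, and after 6 h calcium oxalate crystals were added to 0.1 mg/mL, except in the untreated controls (Control, 7 libraries). The monohydrate was given as plates (COM), and the dihydrate in 4 shapes, each form having 4 libraries: dumbbells (DB), spheres (SPH), and bipyramids that were thick (TK) or thin (TN). The time from adding crystals to collection was not given in the sources used here, all groups share 1 cell line, and no label assigns libraries to separate cultures. The p-values thus measure only how far these samples spread, which may be technical. Libraries are named by group and the replicate letter of their title.

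APOBEC3 enzymes turn cytosine into uracil in single-stranded DNA. They restrict retroviruses and retrotransposons, and when they act on the cell's own genome they can leave C-to-T and C-to-G mutations, in a TpC context for most members, while APOBEC3G prefers CpC. APOBEC3A and APOBEC3B are the members most often tied to such mutations in breast cancer, while APOBEC3D, APOBEC3F, APOBEC3G and APOBEC3H are the packaged restriction factors that the HIV-1 Vif protein targets.

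The genes stand head to tail on the plus strand of chromosome 22, between 38952741 and 39104067 of GRCh38 (151.3 kb, GENCODE 29). In order, APOBEC3A covers 38952741 to 38992778, APOBEC3B 38982347 to 38992804, APOBEC3C 39014083 to 39020352, and APOBEC3D 39021113 to 39033276. APOBEC3F covers 39040604 to 39053910, APOBEC3G 39077005 to 39087743 and APOBEC3H 39097224 to 39104067. The models of APOBEC3A and APOBEC3B overlap because 1 transcript, APOBEC3A-205, reads from APOBEC3A into the last exon of APOBEC3B.

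Several members are close copies of each other, which bears on their counts. The coding bases of the catalytic zinc motif show which, since a read inside this stretch cannot always be given to 1 gene. Each line is the codon run of the motif nearest the C terminus, from the first listed GENCODE 29 coding transcript, 5′ to 3′. Capitals mark the codons of the histidine and the 2 cysteines that hold zinc and of the catalytic glutamate.
APOBEC3A residues 70 to 106 and APOBEC3B residues 253 to 289: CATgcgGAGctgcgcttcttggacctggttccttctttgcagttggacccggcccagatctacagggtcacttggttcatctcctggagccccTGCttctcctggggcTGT
APOBEC3C residues 66 to 100: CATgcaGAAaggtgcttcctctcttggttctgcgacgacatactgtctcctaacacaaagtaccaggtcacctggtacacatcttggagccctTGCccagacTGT
APOBEC3D residues 262 to 296 and APOBEC3F residues 249 to 283: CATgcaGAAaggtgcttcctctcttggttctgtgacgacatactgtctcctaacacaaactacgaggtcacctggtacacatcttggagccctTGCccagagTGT
APOBEC3G residues 257 to 291: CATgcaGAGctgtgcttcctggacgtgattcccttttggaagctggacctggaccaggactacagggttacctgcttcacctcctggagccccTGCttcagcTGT
APOBEC3H residues 54 to 88: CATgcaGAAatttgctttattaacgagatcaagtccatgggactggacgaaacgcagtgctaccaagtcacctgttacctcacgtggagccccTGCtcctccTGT
APOBEC3A and APOBEC3B were identical over all 111 bases, and APOBEC3D and APOBEC3F over all 105. APOBEC3C matched the APOBEC3D and APOBEC3F stretch at 96.2% of aligned bases. APOBEC3G was 81.9% identical to APOBEC3A and APOBEC3B, and APOBEC3H reached at most 62.9% with any other member.

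APOBEC3B, APOBEC3D, APOBEC3F and APOBEC3G hold 2 such motifs in proteins of 382, 386, 373 and 384 residues. APOBEC3A, APOBEC3C and APOBEC3H hold 1, in proteins of 199, 190 and 182 residues. Of the 50-base windows in their transcripts, 37.83% in APOBEC3B, 24.49% in APOBEC3A (14.24% shared with APOBEC3B once APOBEC3A-205 is set aside), 20.84% in APOBEC3F, 14.8% in APOBEC3D and 7.06% in APOBEC3G also occur in another member. Only 1.14% do in APOBEC3C, and 0 of 1342 windows in APOBEC3H. The share of APOBEC3B includes windows in common with APOBEC3A-205. It shares 496 windows with APOBEC3A when that transcript is included and 279 without it. The deposited expected counts were whole numbers (within 0.005) in 27 of 27 libraries for APOBEC3H, in 25 for APOBEC3C, in 1 for APOBEC3A and in 0 for APOBEC3B, APOBEC3D, APOBEC3F and APOBEC3G. Counts of those last 4 and of APOBEC3A contain reads that were split between genes, so their values are uncertain to that extent. A further gene model, AL022318.4 (39014363 to 39033276), begins inside APOBEC3C and runs over APOBEC3D, and it took 85.5 expected counts in all beside the 849.5 of APOBEC3D. After rounding it stood at 0 in all 12 libraries of the second set described below and in all 4 TN libraries.

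The libraries carry serial numbers, and runs of these (1 to 10, 11 to 22 and 23 to 27) define 3 library sets. For COM, DB, SPH and TN, replicates A and B belong to set 1, replicate C to set 2 and replicate D to set 3. Of the untreated libraries, Controls A and B are in set 1, Controls C to F in set 2 and Control G in set 3. Every TK library is in set 2. Totals per library ran from 13115649 to 38672448 counts, with a median of 19251210. The line's epithelial markers were high in every library (7 genes, summing to 7610 to 12800 CPM, which are counts relative to the library total after TMM scaling), while 10 of 12 leukocyte markers averaged under 1 CPM and PTPRC, which encodes the leukocyte antigen CD45, reached at most 0.171. TN B carried liver transcripts (7 markers summed to 1080 CPM, against 79.9 to 144 in the other TN libraries) and LYZ, the lysozyme gene of the leukocyte list, at 58.6 CPM. The 12 leukocyte markers summed to 65.6 CPM in TN B and to 3.85 to 7.87 in the other TN libraries. TN C had a fragment length of 296 nt. The other set 2 libraries reached at most 242.2 nt and those of set 1 began at 256.8 nt. Its liver markers summed to 79.9 CPM, where the other set 2 libraries had 48.9 to 107 and set 1 began at 124. Its leukocyte markers summed to 3.85 CPM, where the other set 2 libraries had 3.41 to 6.03 and set 1 began at 5.5. Its epithelial sum (9770 CPM) lay within the range of both sets. By fragment length its place in set 2 is thus uncertain, while the liver and leukocyte sums lay with set 2.

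Compared per transcript length, APOBEC3C was the most abundant member. The deposited TPM of APOBEC3C, a single-domain enzyme found in most tissues, had a median of 75.6 over the 27 libraries (40.8 to 125). APOBEC3B, the nuclear member, followed at 28.1 TPM (19.9 to 37.8) and never reached the lowest APOBEC3C value. APOBEC3G, a cytoplasmic double-domain restriction factor, lay at 25.5 TPM (6.51 to 58), a range that contains that of APOBEC3B. APOBEC3F lay at 7.43 TPM (3.27 to 11.6) and overlapped the lowest APOBEC3G libraries. APOBEC3D at 0.83 TPM (0.31 to 2.04), APOBEC3H at 0.69 (0.27 to 1.54) and APOBEC3A at 0.24 (0 to 2.27) overlapped one another and lay below every APOBEC3F value. APOBEC3C made up 55.5% ± 2.01 of the family's summed TPM (SD, n = 27), APOBEC3B 19.7% ± 3.93 and APOBEC3G 18.1% ± 4.84.

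**Figure D1:**
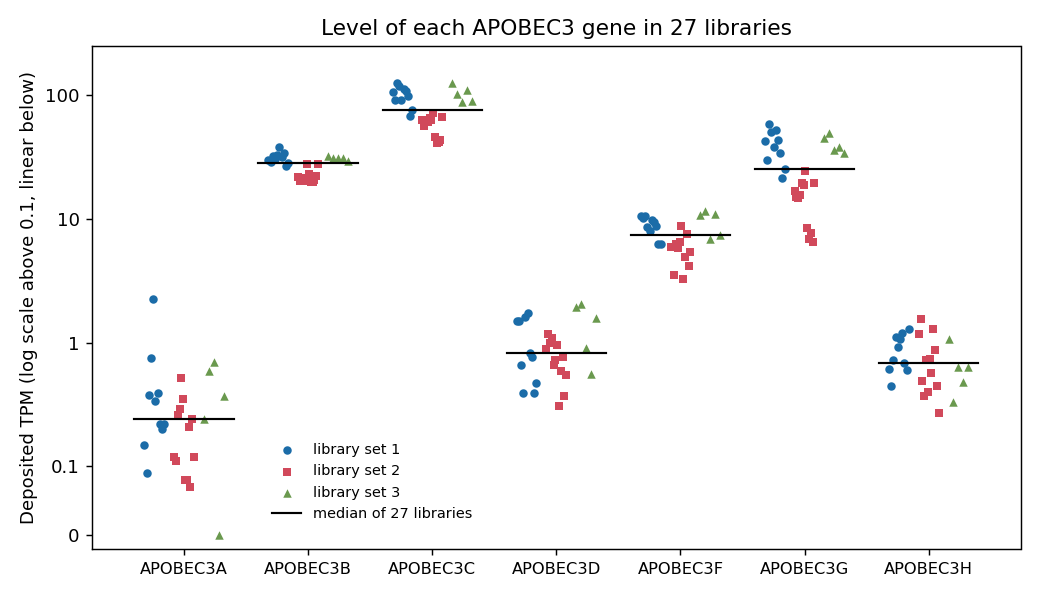
Deposited TPM (y axis, log scale above 0.1 and linear below) of the 7 APOBEC3 genes (x axis). Each point is 1 of 27 libraries, coloured by library set, and the line is the median. APOBEC3C lies at 40.8 to 125 and APOBEC3D, APOBEC3H and APOBEC3A near or below 2.

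Apart from shares of the family's TPM, levels across libraries are given from here on in CPM. This is because the deposited TPM of APOBEC3D and APOBEC3F also moves with the isoform lengths estimated in each library. The library set, not the treatment, separated most values of the 4 abundant members. APOBEC3G lay at 26.2 to 69.9 CPM in set 1 (median 44.8), at 6.21 to 22.8 in set 2 (median 16) and at 36.8 to 54.3 in set 3 (median 42.3). Set 2 did not overlap either other set. APOBEC3B lay at 31.7 to 42.1 CPM in set 1, 20.3 to 30.5 in set 2 and 34 to 37.5 in set 3, and APOBEC3C at 158 to 283, 72.8 to 130 and 169 to 255. These 2 genes also had set 2 below all other libraries. APOBEC3F overlapped between set 1 (14.2 to 28.2 CPM) and set 2 (6.97 to 16.1).

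With treatment in the model, 4 of the 6 tested members were lower in set 2 than in set 1, where 14% of all tested genes were lower. In edgeR's quasi-likelihood test with Benjamini-Hochberg adjustment, the log2 difference was -1.20 (SE 0.13) for APOBEC3G, -0.80 (SE 0.09) for APOBEC3C, -0.63 (SE 0.10) for APOBEC3F and -0.54 (SE 0.07) for APOBEC3B. APOBEC3D (-0.16, SE 0.22) and APOBEC3H (-0.44, SE 0.30) did not pass. Entered before the treatment, the set took 84.1% of the variance of log2 CPM for APOBEC3B and 76.4% for APOBEC3C. It took 72% for APOBEC3G and 62.7% for APOBEC3F, but 8.3% for APOBEC3D. These shares can hold part of a TK difference, because all TK libraries are in set 2. Mitochondrially encoded transcripts, followed for RNA quality, were lower in set 2 as well (9 of 9, median -0.84), and fragments were shorter there than in set 1 in all libraries but TN C. In set 3 fragments measured 214.4 to 246.7 nt. The mitochondrial transcripts summed to 36200 to 50200 CPM there, to 39800 to 60100 in set 1 and to 20400 to 41600 in set 2. The part of either in the set difference was not tested. Every comparison below therefore has the set as a term. All TK libraries are in set 2, so for TK the values within set 2 stand beside those of the fit, which draws on the other sets as well.

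**Figure D2:**
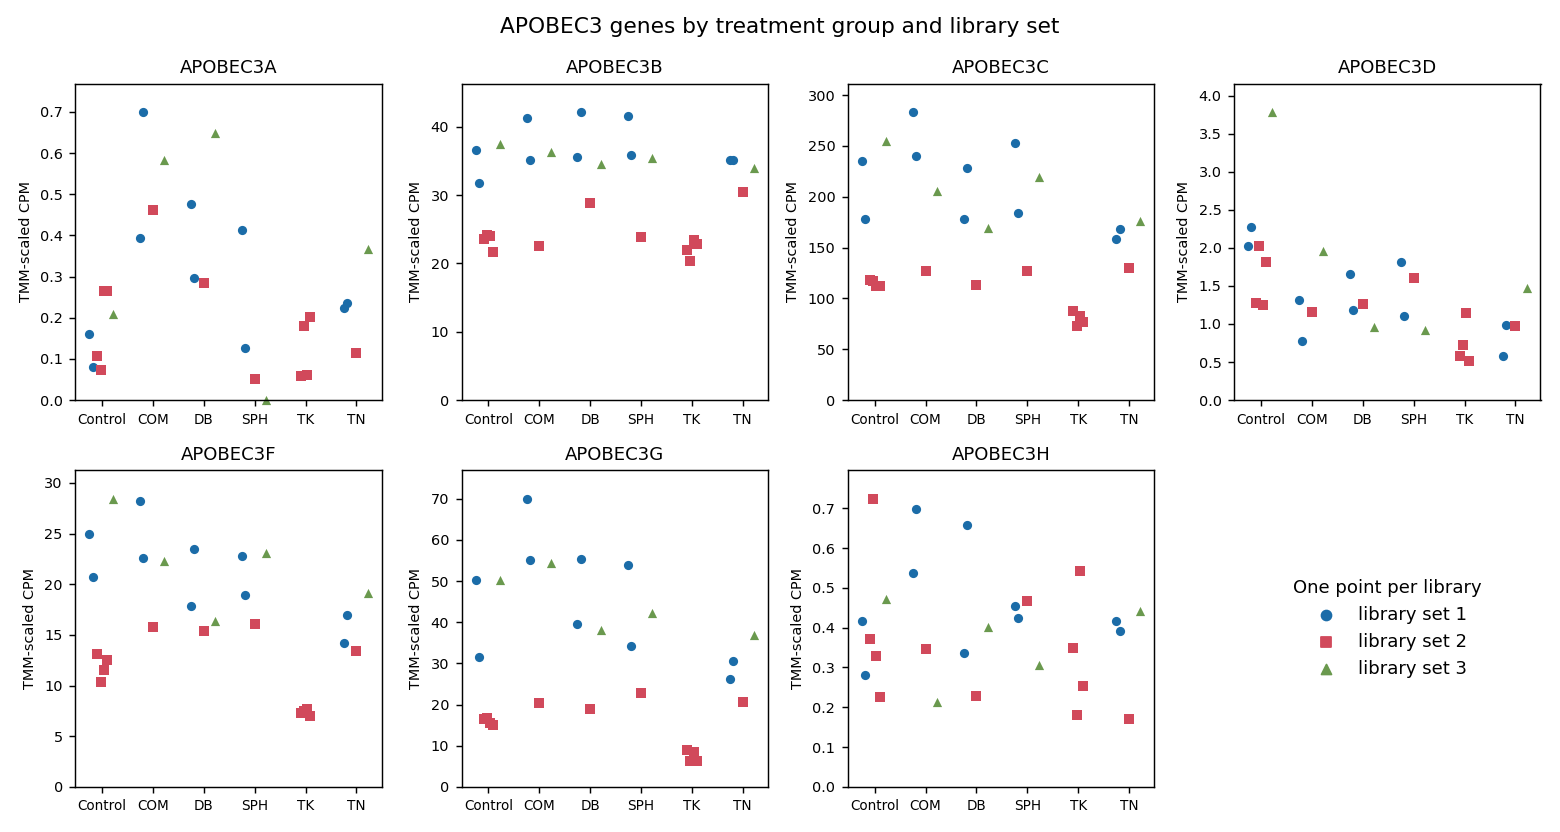
TMM-scaled CPM (y axis, 1 panel per gene, from 0) in the 6 treatment groups (x axis), 1 point per library with colour and shape by library set. For APOBEC3B, APOBEC3C and APOBEC3G the set 2 libraries lie below those of sets 1 and 3, and the TK libraries of APOBEC3C, APOBEC3F and APOBEC3G lie below the set 2 controls.

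APOBEC3G, APOBEC3D, APOBEC3F and APOBEC3C were lower with thick bipyramids (TK) than in the controls, by 2.36-, 2.52-, 1.86- and 1.51-fold, and APOBEC3B and APOBEC3H did not pass the test. That is 4 of 6 tested members, where 15.4% of all tested genes were called for TK and 7.33% were lower. The median log2 change was -0.74 over the 6 members and -0.02 over all tested genes. Since the members were chosen with this contrast known, nothing is read from that share. In bulk RNA such as this, fewer cells of a kind and less RNA per cell cannot be told apart.

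APOBEC3G, which edits retroviral minus-strand DNA, was at 8.85, 6.21, 8.37 and 6.21 CPM in TK A to D. Controls C to F of the same set were at 16.5, 16.7, 15.6 and 15 CPM. Every TK library lay below every set 2 control, and the log2 change was -1.24 (SE 0.20, adjusted p = 0.000193, edgeR's quasi-likelihood test with Benjamini-Hochberg adjustment). Within set 2 alone it was -1.10 (SE 0.11). Its share of the family's TPM was 9.52% ± 0.966 in TK (SD, n = 4) and 14.9% ± 0.393 in Controls C to F (SD, n = 4).

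APOBEC3F, a partner of APOBEC3G in restriction, was at 7.28, 7.47, 7.71 and 6.97 CPM in TK A to D and at 13.1, 10.4, 11.5 and 12.5 in Controls C to F. The groups did not overlap, and the log2 change was -0.90 (SE 0.16, edgeR adjusted p = 0.000361), or -0.69 (SE 0.10) within set 2. APOBEC3C was at 87.7, 72.8, 83 and 77.2 CPM in TK and at 118, 117, 112 and 112 in Controls C to F, again without overlap. Its log2 change was -0.59 (SE 0.12, edgeR adjusted p = 0.00155), or -0.51 (SE 0.06) within set 2.

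APOBEC3D, another packaged double-domain enzyme, is scarce in this line, and its counts are partly shared with APOBEC3F. It was at 0.582, 0.723, 1.14 and 0.509 CPM in TK and at 1.27, 2.02, 1.25 and 1.81 in Controls C to F. The highest TK library lay just under the lowest control. The log2 change was -1.33 (SE 0.33, edgeR adjusted p = 0.00772), -1.11 (SE 0.32) within set 2, and -1.31 (SE 0.30) when the counts of AL022318.4 were added to it. These 4 genes each had all TK libraries below Controls C to F, as did 10.4% of all tested genes.

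APOBEC3B, the member overexpressed in many breast tumours, stood apart. It was at 22, 20.3, 23.5 and 22.9 CPM in TK and at 23.6, 24.2, 24 and 21.6 in Controls C to F. The groups overlapped, and the log2 change was -0.11 (SE 0.09, edgeR adjusted p = 0.461), with an interval of 2 SE from -0.29 to 0.07. Its share of the family's TPM was 26.8% ± 1.47 in TK (SD, n = 4) against 20.2% ± 0.682 in Controls C to F (SD, n = 4). A share also rises when other members fall, so it does not show a rise of APOBEC3B. APOBEC3H, the most divergent member, was at 0.181 to 0.542 CPM in TK and 0.227 to 0.723 in Controls C to F. Its log2 change of -0.08 (SE 0.43) had an interval from -0.94 to 0.77, so a change as large as that of APOBEC3F could not be seen at this depth. APOBEC3A was at 0.0582 to 0.203 CPM in TK and 0.0723 to 0.265 in Controls C to F, at 1 to 7 counts a library.

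**Figure D3:**
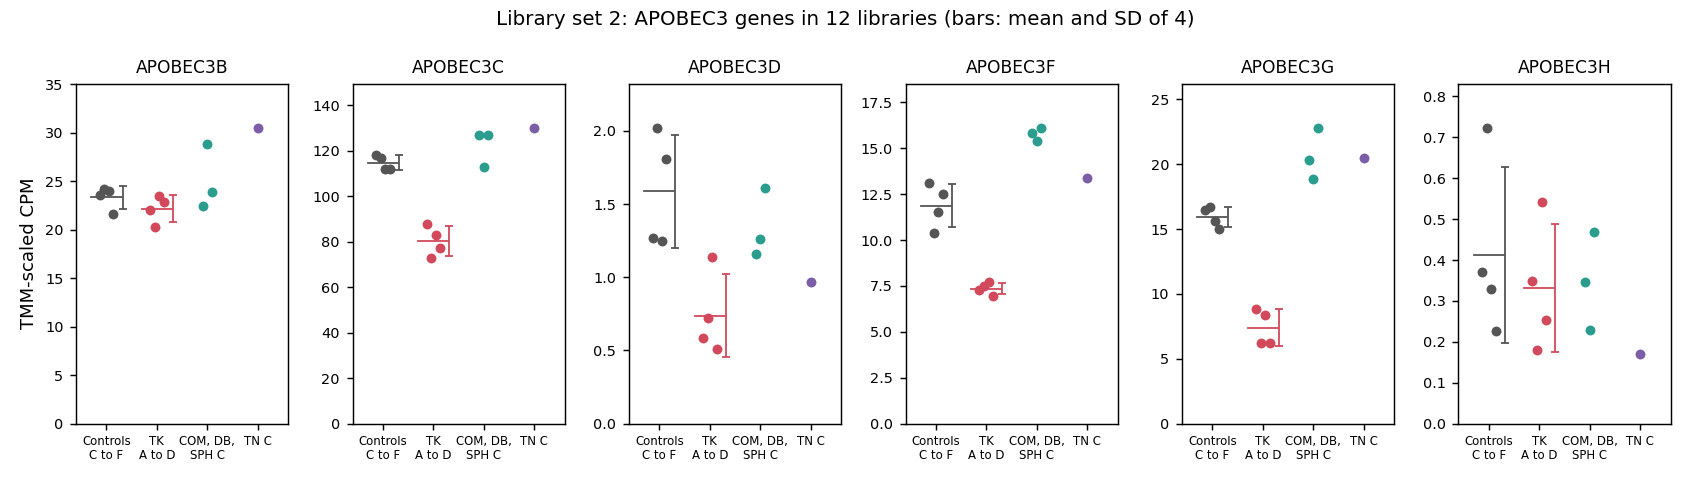
TMM-scaled CPM (y axis, from 0) of the 6 tested members in the 12 libraries of set 2, grouped on the x axis as Controls C to F, TK A to D, the C libraries of COM, DB and SPH, and TN C. Points are libraries, and horizontal lines with bars are the mean and SD of 4. The TK libraries lie below the controls for APOBEC3C, APOBEC3D, APOBEC3F and APOBEC3G (6.21 to 8.85 against 15 to 16.7) and among them for APOBEC3B and APOBEC3H.

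The ratio of APOBEC3B to APOBEC3G counts within a library is free of the scaling between libraries. In TK A to D it was 2.48, 3.26, 2.81 and 3.69. In Controls C to F it was 1.43, 1.45, 1.54 and 1.44. TK held the 4 highest ratios of all 27 libraries, and the lowest were COM A at 0.59 and COM B at 0.64. A ratio shows unequal change of the 2 genes and not which of them moved.

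**Figure D4:**
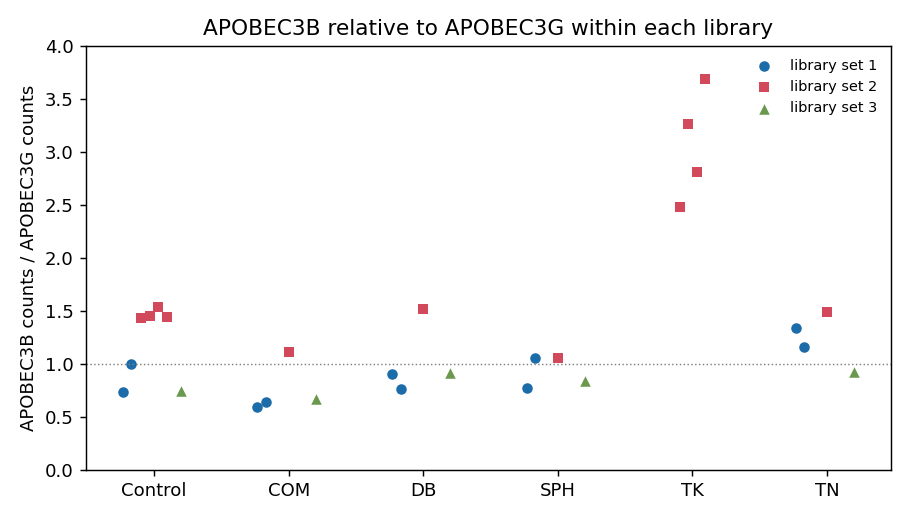
Ratio of APOBEC3B to APOBEC3G counts (y axis, from 0) in each library by treatment group (x axis), with colour and shape by library set and a dotted line at 1. TK libraries lie at 2.48 to 3.69 and the set 2 controls at 1.43 to 1.54.

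For thin bipyramids, 1 of 6 tested members was called, where 11.7% of all tested genes were called and 4.88% were lower. APOBEC3D was at 0.584, 0.992, 0.971 and 1.47 CPM in TN A to D. The controls ran from 1.25 to 3.78 with a median of 2.02. TN D alone lay within the control range, and it lay below the 3.78 CPM of Control G in its own set. The log2 change was -1.13 (SE 0.29, edgeR adjusted p = 0.0123), or -1.26 (SE 0.26) with AL022318.4 added. Without TN A it was -0.96 (SE 0.31) and was no longer called (edgeR adjusted p = 0.079). Without TN B, the library with liver and LYZ transcripts, it was -1.17 (edgeR adjusted p = 0.0237).

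The other members under TN depended on TN C. APOBEC3G was at 26.2 and 30.5 CPM in TN A and TN B, below the 50.2 and 31.6 of Controls A and B, and at 36.8 in TN D, below the 50.2 of Control G. TN C, at 20.5 CPM, lay above all 4 set 2 controls. APOBEC3F and APOBEC3C followed the same order, with TN C at 13.4 and 130 CPM above set 2 controls that reached 13.1 and 118. In the fit, APOBEC3G changed by -0.20 (SE 0.17), APOBEC3F by -0.27 (SE 0.13) and APOBEC3C by -0.20 (SE 0.11) on the log2 scale, and none passed. With TN C counted in set 1, 4 of 6 members were called lower, where 5.65% of all tested genes were lower. The values were then -1.21 (SE 0.31) for APOBEC3D, -0.57 (SE 0.17) for APOBEC3G, -0.46 (SE 0.14) for APOBEC3F and -0.45 (SE 0.12) for APOBEC3C. This alternative was chosen after the fragment lengths had been seen, and the liver and leukocyte marker sums of TN C lay with set 2.

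APOBEC3B under TN was at 35.2, 35.2, 30.5 and 34 CPM in A to D, and TN C again lay above the set 2 controls. Its log2 change was 0.11 (SE 0.08, edgeR adjusted p = 0.423) with all libraries and -0.07 (SE 0.08) with TN C in set 1, so its sign changed with that choice. APOBEC3H at 0.171 to 0.441 CPM changed by -0.31 (SE 0.38), and it did not pass.

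With COM plates, 0 of 6 tested members were called in edgeR, where 6.36% of all tested genes were. At an unadjusted p under 0.05 there were 2, and the share of all genes at that threshold was not counted. DESeq2 called 1 of the 5 members it tested, where it called 1313 of 14290 genes. APOBEC3G came nearest. COM A to D were at 69.9, 55, 20.3 and 54.3 CPM, and each lay above every control of its own set (50.2 and 31.6, at most 16.7, and 50.2). The log2 change was 0.50 (SE 0.16, unadjusted p = 0.00506, edgeR adjusted p = 0.0675). It passed in DESeq2 (adjusted p = 0.0311), without Control A (0.60, SE 0.17, edgeR adjusted p = 0.037) and without Control G (0.60, SE 0.17, edgeR adjusted p = 0.0401). It also passed without the low-count filter (edgeR adjusted p = 2.42e-06), where the change stayed at 0.50 and only the SE fell, to 0.09. It did not pass in the other settings, among them without COM A (0.37, edgeR adjusted p = 0.275), without the set term (0.82, edgeR adjusted p = 0.189), within set 1 (0.61, edgeR adjusted p = 0.318) or within set 2 (0.36, edgeR adjusted p = 0.319).

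APOBEC3D lay below the controls of its set in all 4 COM libraries (1.32, 0.776, 1.16 and 1.96 CPM), at a log2 change of -0.72 (SE 0.29, edgeR adjusted p = 0.153). APOBEC3C (0.18, SE 0.11), APOBEC3F (0.20, SE 0.13), APOBEC3B (0.08, SE 0.09) and APOBEC3H (0.05, SE 0.38) did not pass, and COM D lay below Control G in each of them. APOBEC3A, the monocyte-enriched and most active single-domain mutator, was at 0.394, 0.699, 0.462 and 0.584 CPM in COM A to D, from 9 to 12 counts a library. The 7 controls ran from 0.0723 to 0.265 CPM with a median of 0.161, at 1 to 7 counts, and did not overlap COM. How many of all genes separate from the controls in COM was not counted. Nothing is therefore read from the order for APOBEC3G, APOBEC3D or APOBEC3A. Without the low-count filter the log2 change of APOBEC3A was 1.49 (SE 0.55, edgeR adjusted p = 0.148), which did not pass. The shared windows of APOBEC3A given above make these low counts uncertain.

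With dumbbells, 0 of 6 tested members were called in edgeR, where 10% of all tested genes were. At an unadjusted p under 0.05 there was 1, and the share of all genes at that threshold was not counted. DESeq2 called 0 of the 5 members it tested, where it called 2053 of 14603 genes. APOBEC3D was at 1.66, 1.18, 1.26 and 0.96 CPM (log2 change -0.74, SE 0.29, edgeR adjusted p = 0.103), and DB C overlapped its controls. APOBEC3B changed by 0.16 (SE 0.08), APOBEC3G by 0.14 (SE 0.17), APOBEC3F by -0.07 (SE 0.13), APOBEC3C by -0.12 (SE 0.11) and APOBEC3H by -0.04 (SE 0.38). APOBEC3A was at 0.477, 0.296, 0.285 and 0.65 CPM, above all controls, at 5 to 21 counts a library. The share of all genes above all controls in DB was not counted, so nothing is read from that order. The unfiltered log2 change of APOBEC3A, 1.19 (SE 0.56), did not pass (edgeR adjusted p = 0.33).

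With spheres, 0 of 6 tested members were called in edgeR, where 0.111% of all tested genes were. At an unadjusted p under 0.05 there were 0, and the share of all genes at that threshold was not counted. DESeq2 called 0 of the 5 members it tested, where it called 41 of 13978 genes. The largest value was again that of APOBEC3D, at 1.82, 1.1, 1.61 and 0.917 CPM and a log2 change of -0.60 (SE 0.29, edgeR adjusted p = 0.776). The other 5 lay between -0.01 and 0.18. APOBEC3D was thus estimated below the controls for all 5 forms, but the comparisons share the same 7 controls. Control G, at 3.78 CPM the highest APOBEC3D value of all, weighs on each. Without it the log2 changes were -1.24 (SE 0.33) for TK, -0.95 (SE 0.30) for TN, -0.56 (SE 0.29) for DB, -0.52 (SE 0.30) for COM and -0.43 (SE 0.29) for SPH, and TK and TN were still called.

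**Figure D5:**
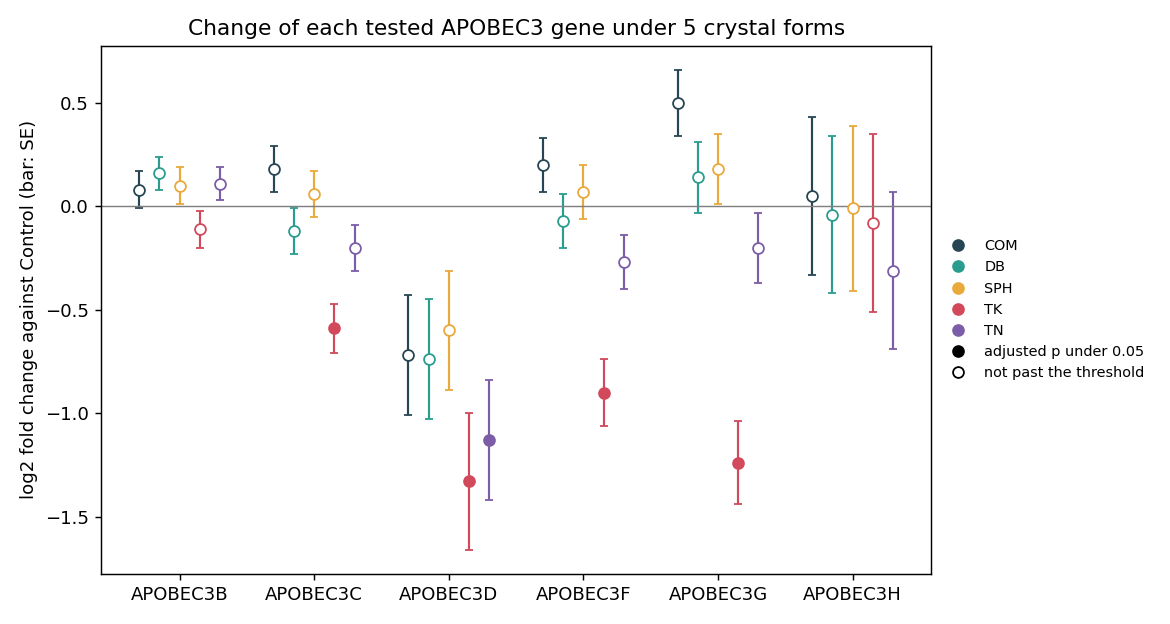
Log2 fold change against Control (y axis, bars are the SE of the fit) for the 6 tested members (x axis) under the 5 crystal forms. Filled points passed an adjusted p of 0.05 in edgeR. APOBEC3C, APOBEC3F and APOBEC3G are filled for TK alone, and APOBEC3D for TK (-1.33) and TN (-1.13).

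The forms were also compared with each other at their common dose of 0.1 mg/mL. Over 10 pairs of forms and 6 members, 11 of 60 tests were called, where 5.58% of all gene-by-pair tests were, and 12 with p-values adjusted over genes and pairs together. Of the 11, 10 involve TK. APOBEC3G was lower in TK than in COM by -1.74 (SE 0.22), than in SPH by -1.42 (SE 0.22) and than in DB by -1.37 (SE 0.22), and TN was above TK by 1.03 (SE 0.22, edgeR adjusted p = 0.0463). APOBEC3F was lower in TK than in COM (-1.09, SE 0.17), SPH (-0.96, SE 0.18) and DB (-0.82, SE 0.18). APOBEC3C was lower in TK than in the same 3 forms, by -0.77 (SE 0.14), -0.66 (SE 0.14) and -0.47 (SE 0.14).

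TK and TN are the same hydrate and differ in the thickness of the bipyramid. Apart from APOBEC3G, their differences (TN minus TK) were not called when adjusted within the pair. APOBEC3F differed by 0.63 with an interval of 2 SE from 0.28 to 0.97 (edgeR adjusted p = 0.156, and 0.0352 adjusted over genes and pairs). The interval was 0.11 to 0.67 for APOBEC3C, 0.01 to 0.43 for APOBEC3B and -0.57 to 0.96 for APOBEC3D. TN C is the only TN library in the set that holds TK, so these differences rest on it and on the set term. The 1 call without TK was APOBEC3G, lower in TN than in COM by -0.71 (SE 0.18, edgeR adjusted p = 0.0241). Between COM, DB and SPH 0 of 18 member differences were called in edgeR (1 at an unadjusted p under 0.05, APOBEC3C in DB against COM). The share of all genes called between these forms was not counted apart from the other pairs, so no likeness of the forms is read from that count. The intervals for APOBEC3G were -0.72 to 0 for DB against COM, -0.68 to 0.05 for SPH against COM and -0.32 to 0.41 for SPH against DB.

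A joint test of all 6 groups called APOBEC3G (edgeR adjusted p = 0.000125), APOBEC3F (0.000709), APOBEC3C (0.00243) and APOBEC3D (0.0122), where 23.2% of all tested genes were called. APOBEC3B (edgeR adjusted p = 0.326) and APOBEC3H (0.973) were not called. Group explained 50.2% of the variance of APOBEC3D after the set, 26.3% of APOBEC3F, 21.7% of APOBEC3G, 15.1% of APOBEC3C and 4.7% of APOBEC3B. For the 4 forms present in sets 1 and 2, the change in set 1 was compared with that in set 2. In edgeR 0 of 24 member tests were called, where 1.48% of all such tests were. At an unadjusted p under 0.05 there were 5, and the share of all tests at that threshold was not counted. The smallest adjusted p-values were under TN, at -0.90 (SE 0.34, edgeR adjusted p = 0.115) for APOBEC3G and -0.72 (SE 0.23, edgeR adjusted p = 0.068) for APOBEC3F, and both contain TN C.

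With set means removed, log2 CPM of APOBEC3C, APOBEC3F and APOBEC3G moved together over the 27 libraries. Pearson's r was 0.94 for APOBEC3C with APOBEC3G, 0.92 for APOBEC3F with APOBEC3G and 0.91 for APOBEC3C with APOBEC3F. APOBEC3B reached 0.62 with APOBEC3G and 0.61 with APOBEC3C, and APOBEC3H at most 0.28 with any member. These are descriptions: the points share treatment groups, and APOBEC3F and APOBEC3G also share reads, while APOBEC3C shares few. Among 11126 genes averaging 5 CPM or more, the pattern of APOBEC3G was most like that of TNFRSF6B (r = 0.92), LOXL2 (0.90) and TEF (0.90). APOBEC3C was most like TNFRSF6B (0.90), TREM2 (0.87) and PTTG1IP (0.86), and APOBEC3F most like TSPAN9 (0.86), MMP2 (0.86) and SPRY2 (0.85). For APOBEC3B they were EIF3E (0.79), OAT (0.77) and CD9 (0.76), for APOBEC3D RGS12 (0.82), AC016026.1 (0.81) and WDR59 (0.80), and for APOBEC3H FMC1 (0.67), RNF187 (0.65) and ASS1 (0.65), each over 27 libraries.

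Genes around the family were counted in the same fit. Of all tested genes, 8.04% were higher and 7.33% lower in TK, 6.84% and 4.88% in TN, 3.94% and 2.42% in COM, 5.92% and 4.1% in DB, and 0.0804% and 0.0309% in SPH. The counts below are to be set against these shares, and none was tested as a list. NF-kB, in its alternative branch, and the DREAM complex with B-MYB are known to control APOBEC3B transcription in cultured cells. Of 12 NF-kB subunits and feedback targets, 5 were higher in TK and 0 lower, among them TNFAIP3 (log2 0.71, SE 0.10), an inhibitor of the pathway, and NFKBIB (0.59, SE 0.11), which holds NF-kB in the cytoplasm. For TN and COM 6 were higher, for DB 5 and for SPH 0, and 0 were lower for these 4 forms. RELB and NFKB2, subunits of the alternative branch, were not called in TK (0.03, SE 0.10, and -0.09, SE 0.07). RELB was called higher in COM (0.41), DB (0.38) and TN (0.31), and NFKB2 in no form. Of 14 DREAM, B-MYB and E2F regulators, 6 were higher in TK and 0 lower, including RBL1 (0.61, SE 0.10), the p107 subunit of DREAM, and MYBL2 (0.56, SE 0.10), which encodes B-MYB. They numbered 5 for TN, 1 each for COM and DB and 0 for SPH, with 0 lower in each. APOBEC3B was called for none of the 5 forms in this fit.

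The interferon pathway is known to induce several APOBEC3 genes in leukocytes. Of its 26 tested genes and restriction factors, 2 were higher and 1 lower in TK: SAMHD1, which depletes nucleotides, was at 0.58 (SE 0.11) and IFITM1, a membrane restriction factor, at -0.41 (SE 0.14). That is near the 15.4% of all tested genes called for TK, so the count is no result about the list. In TN 4 were higher and 0 lower, in COM 1 and 0, in DB 1 and 2, and in SPH 0. Of 17 genes for uracil excision and lesion bypass, which act on the deaminases' product, 5 were higher and 2 lower in TK, with the glycosylases TDG at 0.42 (SE 0.09) and UNG at 0.31 (SE 0.07). In DB 1 was higher and 4 lower, with UNG at -0.34 (SE 0.07). The counts were 2 and 1 for TN and 0 for COM and SPH. Of the 2 other AID/APOBEC and ADAR deaminases that were tested, the RNA editor ADARB1 was lower in TK (-0.51, SE 0.08) and TN (-0.45, SE 0.08).

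Of 6 tested neighbours of the cluster on chromosome 22, 3 were lower and 0 higher in TK, where 7.33% of all tested genes were lower, with NPTXR, which encodes a neuronal pentraxin receptor, at -0.58 (SE 0.13) and SYNGR1, a synaptic vesicle protein gene, at -0.46 (SE 0.14), and the median was -0.27. In TN 1 was lower (NPTXR, -0.52, SE 0.12), where 4.88% of all tested genes were, and 0 were called for the other 3 forms. Leukocytes are rich in several APOBEC3 transcripts. Their 12 markers summed to 3.41 to 4.88 CPM in TK and 3.82 to 5.49 in Controls C to F, and CD14 alone had a median of 4.04 CPM over all 27 libraries. The 9 mitochondrial transcripts summed to 26800 to 27600 CPM in TK and 20700 to 30400 in Controls C to F, and 0 of 9 were called for TK. The epithelial markers summed to 7610 to 8380 CPM in TK and 8640 to 9780 in Controls C to F, and 1 of 7 was lower, ITGB4 at -0.36 (SE 0.12). Their part in the APOBEC3 values was not tested.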

How the data were processed

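Polyadenylated RNA was sequenced from 27 libraries in 6 groups. For each library the authors deposited RSEM expected counts, TPM and lengths by gene, per the file headers. TPM is the authors' deposited length-scaled level and was used only to compare genes and for each member's share of the family's TPM. The submitters' processing notes name Trim Galore, Bowtie2, RSEM and GRCh38. Software versions, the annotation release and strandedness were not given in the sources used here, and the deposited APOBEC3F lengths exceed its GENCODE 29 transcripts, so another release was used. RSEM divides reads that fit several genes, which affects near-identical genes most.

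Expected counts were rounded to whole numbers and analysed in R 4.3.3 with edgeR 4.0.16: filterByExpr on the groups, TMM scaling and 1 quasi-likelihood model of group and library set over all libraries. A gene was called where its p, adjusted by Benjamini-Hochberg over all 16173 genes kept, was under 0.05. APOBEC3A, which the filter removed, was followed by level. SE is the log2 change divided by the square root of F. CPM uses the TMM-adjusted total. The procedure was checked on simulated counts drawn from this same fit, with independent libraries and the same set effect in every group. That check cannot speak to dependence between libraries or to the set of TN C.

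The members and all gene lists were chosen with earlier results of these data known. The named genes are all 7 members, up to 2 called genes with the largest change from each other list per comparison, and the 3 genes most correlated with each tested member. Of those called, the text gives the ones from the comparisons described. RELB and NFKB2 are named besides, as subunits of the alternative NF-kB branch. Alternatives were DESeq2 1.42.0, other size factors, no low-count filter, no set term, single sets, a replicate block, summed paralogs and each library left out. No pair of libraries within a group agreed within sampling noise (51 pairs, chi-square per degree of freedom 2.46 to 70.4). Coordinates and sequences are those of GENCODE 29 on GRCh38.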

Additional observations from a re-analysis of the deposited data

Results flagged for a closer look

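APOBEC3D in Control G stood at 3.78 CPM, far from the other 6 controls, of which the nearest was at 2.28. That gap was 0.593 of the range of the group. It was the 1 such case among 42 gene-by-group sets of libraries, and chance alone sets off this rule in about 1 in 20. Control G is the only control of library set 3. Without it APOBEC3D was still called lower in TK (log2 change -1.24, edgeR adjusted p = 0.0124) and in TN (-0.95, edgeR adjusted p = 0.0477), and its value moved toward 0 for all 5 forms.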

How the results depend on the processing

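The count of 4 members lower in TK held under each alternative run for it, and no member changed direction while called. For COM, 0 members were called in the reported fit, 1 with DESeq2 and 1 without the low-count filter, APOBEC3G each time. Leaving out single libraries gave 0 to 1. For TN the reported count of 1 became 0 within set 1 alone (APOBEC3D -1.45, edgeR adjusted p = 0.0565) and 4 with TN C counted in set 1. Leaving out single libraries gave 0 (without TN A) to 2 (without TN C, when APOBEC3C joined at -0.37, edgeR adjusted p = 0.0336). Within set 2 alone, the log2 change was -0.71 for APOBEC3D and 0.39, the other direction, for APOBEC3B. TN C is the only TN library there, so no call is read from that setting. The 11 member calls between pairs of forms became 18 without the low-count filter. The cause of these moves was not tested. With a replicate block by letter in place of the library set, the TN count was 0 (APOBEC3D -0.97, edgeR adjusted p = 0.114) and 396 genes were called for TN in place of 1896. The labels do not say that letters pair libraries. Deviations from group means correlated at -0.16 to 0.45 between libraries of a letter. Letters of Control and TK do not follow the sets as those of the other forms do, so this range cannot settle pairing. Over all genes, calls without the set term were 543 for COM, 915 for DB, 7 for SPH and 695 for TN. With it they were 1029, 1620, 18 and 1896. TK went the other way, with 2569 calls without the term and 2487 with it.

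Depth limits APOBEC3A, APOBEC3D and APOBEC3H most, at totals of 170.8, 849.5 and 242 counts over 27 libraries. TK has no library outside set 2. Reads shared between paralogs cannot be reassigned from gene-level tables.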
